A study of Rattus norvegicus with 8 samples.

Results

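The tumour necrosis factor (TNF) superfamily, its receptors and the adaptor proteins that the receptors recruit were described in cervix of wild-type Sprague-Dawley rats. Members were taken from the deposited table by symbol: every Tnfsf and Tnfrsf gene with a number, Traf1 to Traf7, and 15 further ligands, receptors and adaptors that carry other names. The rule found 52 genes among 29884 symbols. They comprised 18 ligands, 6 receptors with a death domain, 16 receptors without one, 3 decoy receptors and 9 adaptors. No measured value entered the choice. Pregnant rats received lipopolysaccharide (LPS), the outer membrane glycolipid of Gram-negative bacteria, at 100 µg/kg into the peritoneal cavity on gestational day 17, and controls received the same volume of phosphate-buffered saline (PBS). Cervix was taken 12 hours later, with 4 samples per group that the design text calls biological replicates. LPS given in this way serves as a model of preterm birth brought on by infection, and all animals of both groups were pregnant and otherwise untreated as far as the labels say. Whole tissue was sequenced, so more cells of a type and more RNA per cell cannot be told apart.

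Ligands of this family are mostly membrane proteins that act as trimers, and some are cut from the surface to act at a distance. Their receptors fall into those with a cytoplasmic death domain, which can recruit TRADD, RIPK1 and caspase-8 and can trigger cell death, and those that bind TRAF proteins directly and feed the canonical or the non-canonical NF-kB pathway. Decoy receptors bind ligand without passing on a signal. In the cervix, TNF is known as an inflammatory mediator that stimulates prostaglandin and matrix protease production around labour.

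Libraries held 33191039 to 40634384 counts. Levels are given in CPM, counts relative to library size after TMM scaling between libraries. Of the 14 tissue genes looked up, 13 had a row and all 13 were measured, among them the smooth muscle myosin Myh11, the mucin Muc5b and the basal keratin Krt5. The summed level of 7 placental and decidual genes was at most 0.228 CPM in any library, and Prl8a2, Prl6a1, Cts7 and Gcm1 had 0 counts throughout. No library repeated another: within each group, any pair differed beyond counting noise.

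Of the 52 members, 45 passed the filter on low counts. LPS raised 12 of them and lowered 1 at an edgeR adjusted p under 0.05, which is 26.7% and 2.22% of those tested, where 9.49% of all 16117 genes tested were higher and 7.45% lower. The 12 were the ligands Tnf and Tnfsf13, the receptors Tnfrsf1a, Tnfrsf1b, Fas, Cd40, Tnfrsf14, Ltbr and Tnfrsf11a, and the adaptors Traf1, Traf2 and Traf3. Traf5 was the member that fell. The median log2 fold change of the 45 members was 0.38, against 0.01 over all genes tested. All 4 LPS libraries lay above all 4 PBS libraries for 11 members (24.4%) and below them for 1, where 12.9% and 10.5% of all genes tested were separated in this way. Without PBS replicate 2 the count of higher members was 6, and without PBS replicate 4 it was 7. Of the 45, 7 members (Cd27, Faslg, Tnfrsf8, Tnfrsf13b, Tnfsf8, Tnfsf14 and Tnfsf18) had fewer than 4 PBS libraries above the filter's cutoff of 0.251 CPM, and none of these 7 was called. In Cd27, Tnfrsf8, Tnfsf8 and Tnfsf18, all 4 LPS libraries were above it.

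**Figure D1:**
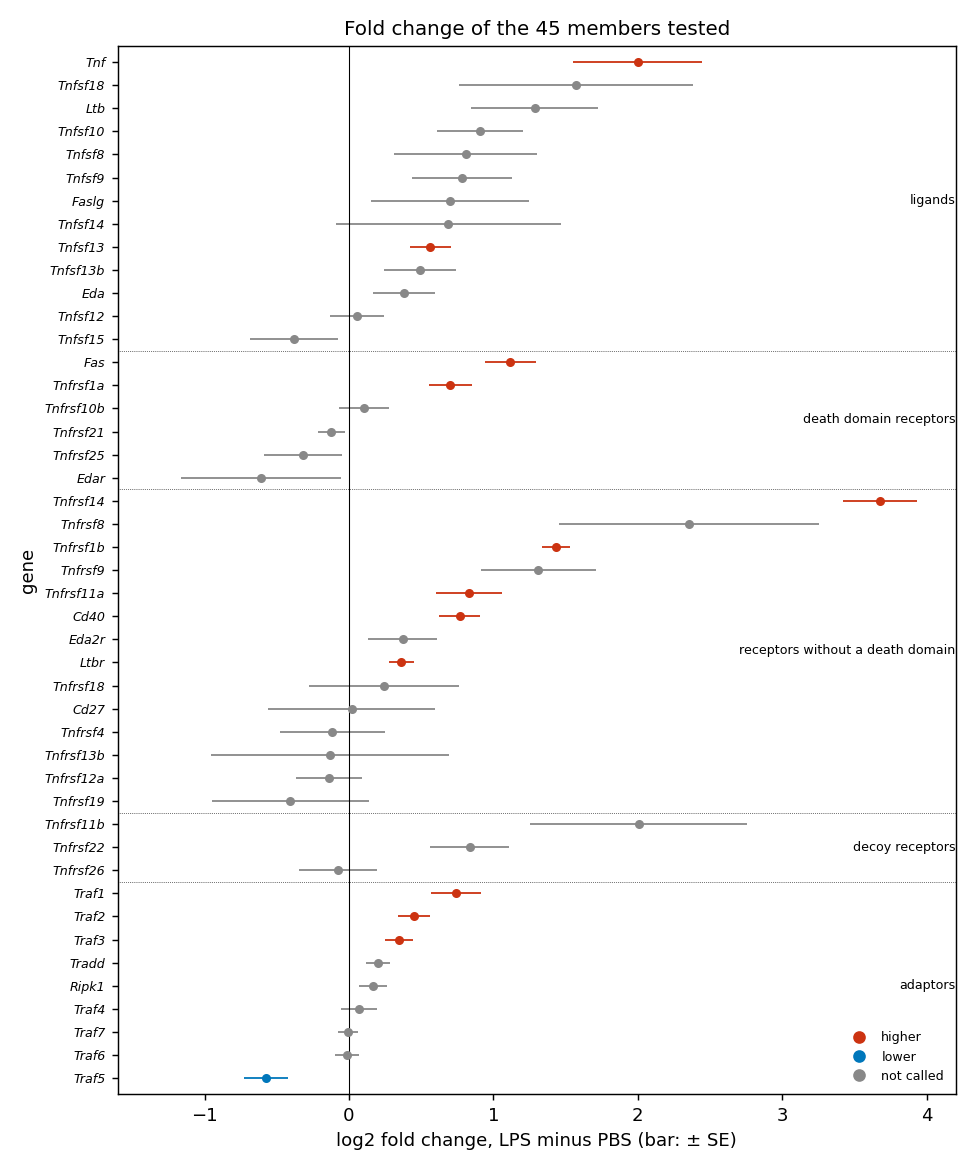
Log2 fold change (LPS minus PBS, horizontal axis) of each of the 45 members tested, grouped by role, with the standard error as a bar and red, blue and grey for higher, lower and not called. Of 45 points, 33 lie above 0, and the farthest to the right is Tnfrsf14 at 3.67.

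Both receptors of TNF rose, and they rose unequally. Tnfrsf1b encodes TNF receptor 2, which lacks a death domain and is carried mainly by leukocytes and endothelium. It stood at 25.5, 22.0, 26.5 and 21.3 CPM in PBS replicates 1 to 4 and at 59.8, 67.4, 69.5 and 61.1 CPM in LPS replicates 1 to 4. The groups were far apart and each was tight, with means of 23.8 ± 2.57 and 64.4 ± 4.71 CPM (SD, n = 4 per group) and a change of 1.44 on the log2 scale (SE 0.10; edgeR, adjusted p = 0.000267). Tnfrsf1a encodes TNF receptor 1, the death domain receptor found on nearly all cells. It measured 122, 119, 120 and 104 CPM in PBS and 176, 172, 251 and 158 CPM in LPS. LPS replicate 3 was its highest library and PBS replicate 4 its lowest, the groups did not overlap, and the log2 fold change was 0.70 (SE 0.15, adjusted p = 0.0142). The ratio of Tnfrsf1b to Tnfrsf1a counts within a library is free of the scaling between libraries. It was 0.205 ± 0.0155 in PBS and 0.349 ± 0.0536 in LPS (SD, n = 4 per group), a difference of 0.76 on the log2 scale. This ratio is 1 of 4 that were chosen after the members' values had been seen. It is given with no test, since Tnfrsf1b was already separated, with the larger fold change, when the pair was chosen.

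Tnfrsf14 showed the largest fold change among the members tested. It encodes the herpesvirus entry mediator, a receptor for LIGHT (Tnfsf14) and lymphotoxin alpha that also engages the inhibitory receptor BTLA. PBS libraries held 1.99, 2.20, 2.76 and 2.91 CPM, and LPS libraries held 23.8, 30.6, 46.6 and 24.9 CPM. Every LPS library was well above every PBS library, and the log2 fold change was 3.67 (SE 0.26, adjusted p = 0.000304), with means of 2.47 ± 0.438 and 31.5 ± 10.5 CPM (SD, n = 4 per group). Ltbr, the lymphotoxin beta receptor that shares LIGHT as a ligand, rose far less, from 117, 112, 110 and 106 CPM to 134, 133, 165 and 139 CPM. The LPS range began above the PBS range, and the log2 fold change was 0.36 (SE 0.09, adjusted p = 0.0255). The ratio of Tnfrsf14 to Ltbr counts was 0.0171 to 0.0275 in PBS and 0.178 to 0.283 in LPS, a log2 difference of 3.28. This ratio is given with no test, since the gap in Tnfrsf14 alone already separated the groups when the pair was chosen. Ltbr no longer passed when PBS replicate 2, 3 or 4 was left out.

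Fas, the death receptor that assembles caspase-8 on binding Fas ligand, held 7.87, 7.92, 6.90 and 5.90 CPM in PBS and 14.5, 11.8, 19.9 and 15.9 CPM in LPS. All LPS libraries were above all PBS libraries, and the log2 fold change was 1.12 (SE 0.18, adjusted p = 0.00477). Cd40, the receptor through which T cell help activates antigen-presenting cells, held 7.46, 6.39, 5.22 and 7.28 CPM in PBS. In LPS it held 10.4, 11.7, 11.2 and 11.5 CPM, a narrow band above the controls (log2 fold change 0.77, SE 0.14, adjusted p = 0.00863). The receptors Tnfrsf1b, Tnfrsf14, Fas, Cd40 and Tnfrsf1a passed the test in all 17 alternatives run, with different scalings, filters and tools and with libraries left out. Tnfrsf11a, which encodes RANK and drives osteoclasts, mammary epithelium and dendritic cell survival, rose from 23.5, 17.8, 24.2 and 12.9 CPM to 31.1, 26.4, 37.1 and 44.6 CPM. Its groups did not overlap but came close, and its log2 fold change was 0.83 (SE 0.23, adjusted p = 0.0397). Leaving out PBS replicate 2 or 4, or LPS replicate 1, 3 or 4, left Tnfrsf11a without a call.

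**Figure D2:**
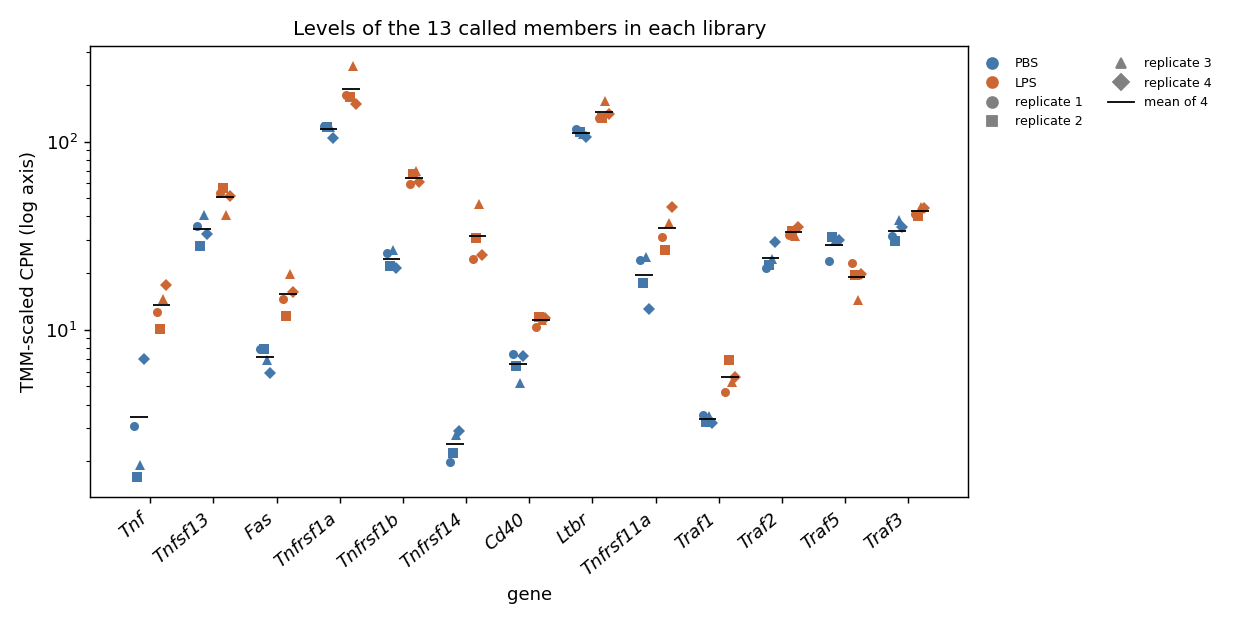
Level of each of the 13 called members in every library (vertical axis, TMM-scaled CPM on a log scale), with PBS in blue, LPS in orange, a marker shape per replicate number and a line at the mean of 4. Tnfrsf14 shows the widest gap, 1.99 to 2.91 CPM in PBS against 23.8 to 46.6 CPM in LPS, and Traf5 is the gene whose LPS points lie below its PBS points.

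The DNA around the start of the called genes is shown because several family genes are textbook targets of NF-kB or interferon-regulated factors. RefSeq windows of 300 bases (250 before and 50 after the annotated start, build GRCr8, which is not the build named for the counts) were matched by symbol for 40 of the 52 members. There was no entry for Cd40, Cd40lg, Tnfrsf10b, Tnfrsf11a, Tnfrsf11b, Tnfrsf14, Tnfrsf18, Tnfsf4, Tnfsf9, Tnfsf12, Tradd and Traf6. Windows were searched on both strands for the kappaB consensus, for the core of the interferon-stimulated response element (GAAA, any 2 bases, GAAA), for the gamma-activated site TTCNNNGAA and for the TATA core TATAA. The windows of the 4 higher members with the lowest adjusted p and an entry, and of Traf5, follow in the direction of transcription. Capitals mark matches to the kappaB consensus, the interferon element core and the TATA core. Tnfrsf1b lies at chr5:162387362-162387661 (minus strand), Fas at chr1:241211905-241212204 (plus), Tnfrsf1a at chr4:159836869-159837168 (plus), Tnf at chr20:3626435-3626734 (plus) and Traf5 at chr13:106149658-106149957 (minus).
Tnfrsf1b: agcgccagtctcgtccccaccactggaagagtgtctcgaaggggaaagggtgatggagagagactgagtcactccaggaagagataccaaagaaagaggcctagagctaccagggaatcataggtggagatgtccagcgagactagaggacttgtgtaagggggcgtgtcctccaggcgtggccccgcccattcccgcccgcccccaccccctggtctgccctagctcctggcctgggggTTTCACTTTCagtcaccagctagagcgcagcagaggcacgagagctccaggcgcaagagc
Fas: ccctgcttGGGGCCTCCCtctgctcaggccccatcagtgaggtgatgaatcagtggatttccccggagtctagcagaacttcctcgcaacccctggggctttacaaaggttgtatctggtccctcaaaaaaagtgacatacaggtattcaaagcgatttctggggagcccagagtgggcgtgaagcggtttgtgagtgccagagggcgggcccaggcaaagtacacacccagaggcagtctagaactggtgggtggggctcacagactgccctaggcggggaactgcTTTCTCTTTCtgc
Tnfrsf1a: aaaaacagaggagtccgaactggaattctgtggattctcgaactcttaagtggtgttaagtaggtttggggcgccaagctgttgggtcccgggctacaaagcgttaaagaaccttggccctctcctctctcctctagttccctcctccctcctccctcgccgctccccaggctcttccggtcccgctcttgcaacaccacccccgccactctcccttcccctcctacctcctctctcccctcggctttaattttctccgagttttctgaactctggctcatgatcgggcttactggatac
Tnf: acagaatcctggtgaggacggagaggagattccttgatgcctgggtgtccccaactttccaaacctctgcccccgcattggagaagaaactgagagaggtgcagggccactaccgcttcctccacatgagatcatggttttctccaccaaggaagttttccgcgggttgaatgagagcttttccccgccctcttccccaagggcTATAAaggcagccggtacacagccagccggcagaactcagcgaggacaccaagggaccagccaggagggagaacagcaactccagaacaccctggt
Traf5: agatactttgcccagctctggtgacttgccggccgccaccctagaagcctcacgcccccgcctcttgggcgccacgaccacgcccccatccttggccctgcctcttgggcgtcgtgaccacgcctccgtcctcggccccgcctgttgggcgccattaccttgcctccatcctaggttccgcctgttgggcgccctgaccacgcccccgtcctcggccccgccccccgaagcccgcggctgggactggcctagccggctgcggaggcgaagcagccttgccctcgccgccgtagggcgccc

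In the Tnfrsf1b window the capitals are an interferon element core on the opposite strand, TTTCACTTTC, which ends at the last base before the annotated start. Fas held a kappaB match, GGGGCCTCCC, that reads as one on both strands and begins 242 bases before the start, and an interferon element core, TTTCTCTTTC, beginning at base 38 after it. The capitals of Tnf are a TATA core beginning 46 bases before the start. The windows of Tnfrsf1a and Traf5 held none of these 3 motifs. Beyond the printed windows, Traf3 carried the kappaB match GGGGATTTCC 10 bases before its start, and Ltb carried GGAAAGTCCC, a match on the opposite strand, 25 bases before its start. Tnfsf13b, which was not called, carried the interferon element core GAAAGTGAAA 20 bases before its start. A kappaB match was found in 8 of 40 member windows (20%), against 7.6% of all 27457 windows and 9.73% of the 12559 windows of genes tested. Among the higher members with a window it was found in 2 of 9, and among the tested members that were not called in 4 of 25. The interferon element core was found in 4 of 40 member windows (10%), in 3.77% of all windows and in 3.14% of those of genes tested. For the gamma-activated site these shares were 3 of 40 (7.5%), 8.68% and 6.92%, and for the TATA core 13 of 40 (32.5%), 26.1% and 15%. These matches are descriptions of the sequence, and binding was not measured.

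Among ligands, 12 of 13 fold changes were above 0, where 8260 of 16117 were over all genes tested. For Tnfsf8 and Tnfsf18, 3 PBS and 4 LPS libraries lay above the filter's cutoff, and for Faslg 1 and 3. The direction of these genes is therefore not independent of the filter, and the count of 12 is a description only. All 4 LPS libraries lay above all 4 PBS libraries for 1 ligand (7.69%, against 12.9% of all genes tested). By edgeR, 2 of 13 ligands tested rose (15.4%, against 9.49% of all genes tested) and 0 fell. By an unadjusted p under 0.05 the counts were 4 and 0, as they were with DESeq2. Over all 16117 genes tested, 2720 were higher and 2541 lower by unadjusted p, and DESeq2 called 2099 and 2089. Tnf itself held 3.09, 1.66, 1.92 and 7.01 CPM in PBS and 12.5, 10.1, 14.6 and 17.3 CPM in LPS. PBS replicate 4 was higher than the other controls and still below every LPS library. The means were 3.42 ± 2.47 and 13.6 ± 3.05 CPM (SD, n = 4 per group), a log2 difference of 1.999 with an SE of 0.45 (edgeR, adjusted p = 0.0189). The call was lost in 1 of 17 alternatives, the one without both PBS replicate 1 and LPS replicate 2 (adjusted p = 0.0548). Tnfsf13 encodes APRIL, a survival factor of plasma cells. It rose from 35.6, 27.8, 40.9 and 32.3 CPM to 53.6, 56.5, 40.7 and 51.2 CPM (log2 fold change 0.56, SE 0.14, adjusted p = 0.0284). PBS replicate 3 and LPS replicate 3 overlapped, and Tnfsf13 did not pass once PBS replicate 2 or 4, or LPS replicate 1, 2 or 4, was removed. Its neighbour Tnfsf12, which encodes TWEAK, had 27.8 ± 6.73 CPM in PBS and 28.9 ± 4.89 CPM in LPS (SD, n = 4 per group; a log2 difference of 0.06, adjusted p = 0.865). The count ratio of Tnfsf13 to Tnfsf12 was 0.97 to 1.59 in PBS and 1.60 to 2.07 in LPS, a log2 difference of 0.49, and its groups barely separated. It is given with no test, since the fold changes of both genes had been seen when the pair was chosen.

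Tnfsf10, which encodes the death ligand TRAIL, had 69.6, 50.8, 45.8 and 41.1 CPM in PBS and 163, 82.1, 80.3 and 63.2 CPM in LPS. LPS replicate 1 stood well above the other LPS libraries, LPS replicate 4 fell below the highest control, and the gene did not pass (log2 fold change 0.90, SE 0.30, adjusted p = 0.0704). It passed with DESeq2, with the quality-weighted limma-voom fit and without LPS replicate 4, and its value was 0.54 without LPS replicate 1. Ltb, the membrane anchor of lymphotoxin, had 3.5, 3.64, 6.78 and 5.87 CPM in PBS and 9.26, 9.98, 5.44 and 23.5 CPM in LPS (1.28, SE 0.44, adjusted p = 0.0806). Its highest library was LPS replicate 4, without which the value was 0.73, and LPS replicate 3 lay among the controls. Tnfsf13b, the B cell survival factor BAFF, had 3.25 to 5.57 CPM in PBS and 4 to 7.48 CPM in LPS (0.49, adjusted p = 0.213). Faslg, the ligand of Fas, was near the detection limit, with 0.148 to 0.297 CPM in PBS and 0.0988 to 0.538 CPM in LPS (adjusted p = 0.413).

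The other ligands tested did not pass. Tnfsf18, the ligand of the GITR receptor, had 0.148 to 0.941 CPM in PBS and 0.494, 0.589, 4.28 and 0.929 CPM in LPS. Tnfsf8 and Tnfsf9, costimulatory ligands of activated lymphocytes and antigen-presenting cells, also peaked in LPS replicate 3, at 1.19 and 3.14 CPM, where LPS replicates 1, 2 and 4 reached at most 0.461 and 1.91 CPM. Without that library the log2 fold changes of the 3 genes were 0.35, 0.25 and 0.49, against 1.57, 0.81 and 0.78 with it. Tnfsf15, an endothelial ligand of the death receptor Tnfrsf25, had 12.5, 4.8, 8.87 and 4.98 CPM in PBS and 5.55 to 6.57 CPM in LPS (-0.38, adjusted p = 0.425), and its value was -0.06 without PBS replicate 1. Eda, the ectodysplasin of skin appendages, had 3.15 to 4.46 CPM in PBS and 4.15 to 6.86 CPM in LPS (adjusted p = 0.26), and Tnfsf14 had at most 0.587 CPM in any library.

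The ligands Tnfsf11, Lta, Cd40lg, Cd70 and Tnfsf4 and the receptors Tnfrsf13c and Tnfrsf17 fell below the filter and are given as counts. Tnfsf11, the ligand of RANK, had 1, 2, 1 and 3 counts in PBS replicates 1 to 4 and 4, 4, 6 and 2 in LPS replicates 1 to 4. Lta, lymphotoxin alpha, had 0, 3, 2 and 2 counts in PBS and 5, 6, 2 and 13 in LPS. Cd40lg, the T cell ligand of Cd40, had 2, 10, 7 and 2 counts in PBS and 2, 2, 2 and 6 in LPS. Cd70 had at most 9 counts and Tnfsf4 at most 2 in any library. Tnfrsf13c and Tnfrsf17, receptors of B and plasma cells for BAFF and APRIL, had at most 4 and at most 1. A library with 0 counts allows up to 3 counts, or 0.0734 to 0.0899 CPM, which covers counting error only. When no filter was applied, all 52 members were tested and the called members were the same 13.

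Of the receptors without a death domain, 5 of 14 tested rose (35.7%, against 9.49% of all genes tested) and 0 fell by edgeR. By unadjusted p the counts were 7 and 0, against 2720 and 2541 of all 16117 genes tested. DESeq2 called 6 and 0, against 2099 and 2089. Without PBS replicate 2 or PBS replicate 4, 3 rose. Besides those described, Tnfrsf9, an inducible costimulatory receptor of T and NK cells, had 5.42, 2.57, 1.65 and 2.97 CPM in PBS and 10.1, 8.81, 8.36 and 4.03 CPM in LPS. LPS replicate 4 lay below the highest control, and the adjusted p was 0.056 (log2 fold change 1.31, SE 0.40). Tnfrsf9 passed in 5 of 17 alternatives, among them those without LPS replicate 4 and without PBS replicate 1. Tnfrsf8, a receptor of activated lymphocytes, had 5, 3, 20 and 0 counts in PBS and 71, 27, 36 and 13 in LPS (2.35, SE 0.90, adjusted p = 0.109). PBS replicate 3 held 20 of its 28 PBS counts, and 1 PBS library against 4 LPS libraries lay above the filter's cutoff.

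Tnfrsf12a, the TWEAK receptor of injured epithelium and stroma, had 24.8 to 33.1 CPM in PBS. In LPS it had 19.1, 22.9 and 22.9 CPM in replicates 1, 2 and 4 and 41.2 CPM in replicate 3, so LPS libraries lay on both sides of the controls (adjusted p = 0.719). The T cell receptors Cd27, Tnfrsf4 and Tnfrsf18 had means of 0.462 to 0.849 CPM in both groups and adjusted p-values of 0.781 to 0.985. Tnfrsf13b, a receptor for BAFF and APRIL on B cells, had 1.07 CPM in PBS replicate 1 and 0.15 to 0.222 CPM in the other controls. Eda2r and Tnfrsf19, receptors of epithelial and mesenchymal development, had adjusted p-values of 0.322 and 0.648. Tnfrsf19 had 0.279 CPM in LPS replicate 3 against at least 1.03 CPM in LPS replicates 1, 2 and 4, and Edar, the death domain receptor for ectodysplasin, had 0.177 CPM there against 1.10 to 1.43 CPM. Within its group, LPS replicate 3 thus held the least Edar and Tnfrsf19, and the most Eda2r (5.95 CPM), Tnfsf18, Tnfsf8, Tnfsf9 and Tnfrsf12a.

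Of the 6 death domain receptors, 2 rose (33.3%, against 9.49% of all genes tested) and 0 fell by edgeR. The counts were the same at an unadjusted p under 0.05 and with DESeq2. Over all 16117 genes tested, these gave 2720 and 2099 higher and 2541 and 2089 lower. Those that did not pass, besides Edar, were Tnfrsf10b, the TRAIL receptor, Tnfrsf21 and Tnfrsf25. Tnfrsf10b had 4.56 to 7.26 CPM in PBS and 5.45 to 6.55 CPM in LPS (log2 fold change 0.11, SE 0.17, adjusted p = 0.718). Tnfrsf21, which acts in neurons and T helper cells, had 98.7 to 102 CPM in PBS and 102, 80.6, 101 and 82.8 CPM in LPS (-0.12, SE 0.09, adjusted p = 0.408). Tnfrsf25 had 2.67 ± 0.708 CPM in PBS and 2.14 ± 0.406 CPM in LPS (SD, n = 4 per group; adjusted p = 0.448).

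Of the 3 decoy receptors, 0 were called by edgeR, 2 were higher at an unadjusted p under 0.05, and DESeq2 called 1, Tnfrsf22. Of all 16117 genes tested, 2720 were higher by unadjusted p and 2099 with DESeq2. Tnfrsf11b encodes osteoprotegerin, the soluble decoy for RANKL and TRAIL. It had 19.0, 29.3, 12.4 and 12.8 CPM in PBS and 28.3, 28.2, 213 and 26.0 CPM in LPS. LPS replicate 3 stood far above every other library, while the remaining LPS libraries lay at the level of PBS replicate 2. Its log2 fold change was 2.01 (SE 0.75, adjusted p = 0.103), and 0.58 without LPS replicate 3. Tnfrsf22 had 6.90 to 11.2 CPM in PBS and 13.9, 16.8, 22.0 and 9.19 CPM in LPS (0.84, adjusted p = 0.0675), and it passed without LPS replicate 4. Tnfrsf26, which lies next to Tnfrsf22, had 8.32 ± 1.76 CPM in PBS and 7.91 ± 2.75 CPM in LPS (SD, n = 4 per group; adjusted p = 0.878). Reads of these 2 related rodent genes may not be fully separable.

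**Figure D3:**
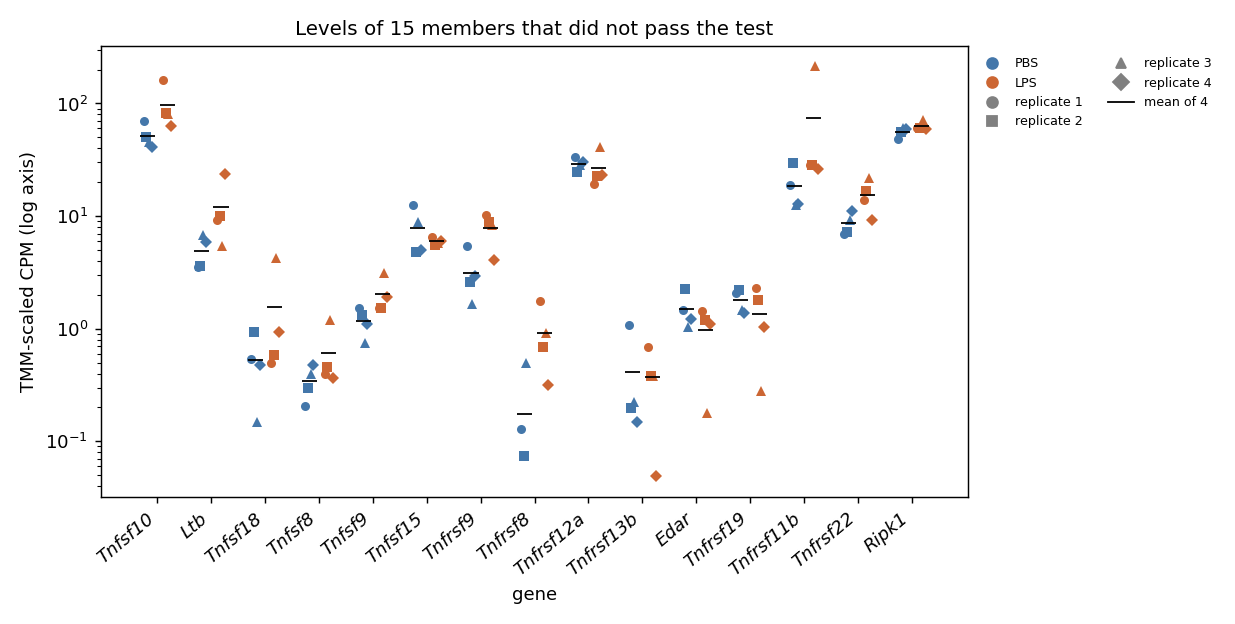
Level of 15 members that did not pass the test in every library (vertical axis, TMM-scaled CPM on a log scale), with colours, shapes and mean lines for PBS and LPS replicates 1 to 4. PBS replicate 4 had 0 counts of Tnfrsf8 and is not drawn there. LPS replicate 3 (orange triangle) stands apart for Tnfrsf11b at 213 CPM and Tnfsf18 at 4.28 CPM, and is lowest for Edar and Tnfrsf19.

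Of the 9 adaptors, 3 rose (33.3%, against 9.49% of all genes tested) and 1 fell (11.1%, against 7.45%), so the share that fell was near that of all genes. Traf1, an inducible TRAF without a RING domain that is itself an NF-kB target, had 3.53, 3.22, 3.5 and 3.18 CPM in PBS and 4.67, 6.89, 5.27 and 5.60 CPM in LPS. The groups did not overlap (log2 fold change 0.74, SE 0.17, adjusted p = 0.0218). Traf2, which links TNF receptors to the cellular inhibitors of apoptosis, had 21.3, 22.2, 23.9 and 29.4 CPM in PBS and 32.0, 33.6, 31.4 and 35.3 CPM in LPS (0.45, SE 0.11, adjusted p = 0.0258). Traf3, which holds the non-canonical pathway off by marking its kinase for degradation, had 31.6, 29.5, 38.1 and 35.3 CPM in PBS and 41.4, 40.2, 45 and 44.5 CPM in LPS (0.35, SE 0.09, adjusted p = 0.038). PBS replicate 4 for Traf2 and PBS replicate 3 for Traf3 came nearest to the LPS range.

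Traf5, a TRAF of CD40, CD27 and lymphotoxin beta receptor signalling, had 23.1, 30.9, 29.5 and 29.9 CPM in PBS and 22.5, 19.5, 14.4 and 19.8 CPM in LPS. PBS replicate 1 lay just above LPS replicate 1, and the other 3 controls were well above all LPS libraries. The log2 fold change was -0.57 (SE 0.15, adjusted p = 0.0335). The count ratio of Traf5 to Traf2 was 1.02 to 1.39 in PBS and 0.459 to 0.704 in LPS, a log2 difference of -1.04. It is given with no test, since the libraries of both genes were already separated, in opposite directions, when the pair was chosen. The count of higher adaptors changed with the libraries used: 0 were higher without PBS replicate 2 or without LPS replicate 2, and 1 was higher when PBS replicate 1, 3 or 4, or LPS replicate 4, was removed. Leaving out any of PBS replicates 2 to 4, or LPS replicate 2 or 4, left Traf5 uncalled. Traf6, which serves Toll-like and interleukin-1 receptors as well as RANK and CD40, had 28.9 ± 2.32 CPM in PBS and 28.7 ± 1.32 CPM in LPS (SD, n = 4 per group; a log2 difference of -0.01 with an SE of 0.08, adjusted p = 0.934). Tradd and Ripk1, which sit on the death domain of TNF receptor 1, had values of 0.20 (SE 0.09, adjusted p = 0.136) and 0.16 (SE 0.10, adjusted p = 0.279). Traf4 and Traf7 had adjusted p-values of 0.74 and 0.949.

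**Figure D4:**
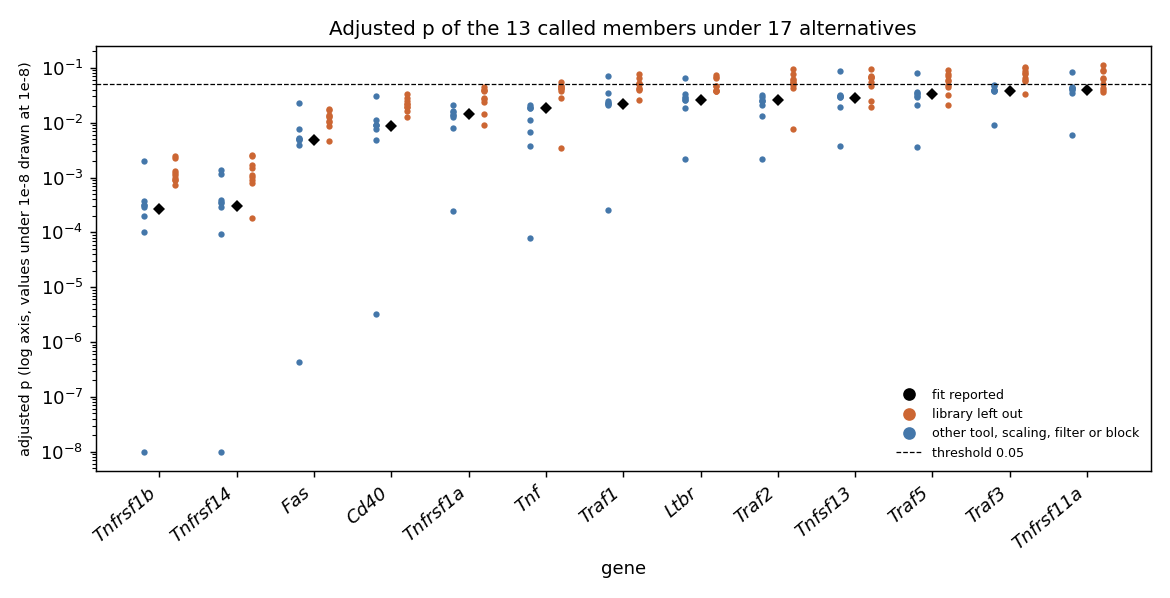
Adjusted p (vertical axis, log scale) of the 13 called members in the fit reported (black) and under 17 alternatives, with libraries left out in orange and other tools, scalings, filters and the replicate block in blue, and the smallest values drawn at the lower end of the axis. Tnfrsf1b, Tnfrsf14, Fas, Cd40 and Tnfrsf1a stay under the dashed threshold of 0.05 throughout, and the other 8 cross it at least once.

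Several members sit beside each other in the RefSeq annotation of GRCr8, and neighbours did not always move together. Lta, Tnf and Ltb follow one another with no other protein-coding gene between them. Of these 3, Tnf rose, Ltb did not pass and Lta was below the filter. Cd27, Ltbr and Tnfrsf1a lie in a row with a single gene between each pair, and Ltbr and Tnfrsf1a rose while Cd27 had a value of 0.02 (adjusted p = 0.985). Tnfrsf1b and Tnfrsf8 are neighbours, as are Tnfsf13 and Tnfsf12, and in each pair the gene named first was called. Without a stated strand setting, reads of overlapping genes cannot be told apart. Ripk1 overlaps Serpinb6a, Tnfrsf10b overlaps Rhobtb2, and Tradd overlaps Phaf1, and none of these 6 genes was called. Tnfrsf1b and Tnfrsf8 overlap LOC103692519, which had at most 5 counts in any library. Eif4a1l overlaps both Tnfsf12 and Tnfsf13 in this annotation and was not analysed here.

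Of the lists fixed for the rest of the pathway, the partners of the receptor complex were 12 higher and 0 lower of 32 by edgeR (37.5% against 9.49% of all genes; 0 lower at an unadjusted p under 0.05 and 0 with DESeq2), with a median log2 fold change of 0.21. Birc3, an inhibitor of apoptosis that ubiquitinates RIPK1, had 7.28, 4.46, 6.58 and 6.35 CPM in PBS and 35.8, 32.0, 86.0 and 46.5 CPM in LPS (3.02, adjusted p = 0.00124). Ikbke, a kinase that joins innate and NF-kB signalling, rose by 1.81 (adjusted p = 0.0013). The 12 also held the brake Tnfaip3 (A20) and the necroptosis genes Ripk3 and Mlkl. Fadd, Casp8 and the linear ubiquitin ligase genes Rnf31, Rbck1 and Sharpin were not called, with values of 0.13, -0.01, 0.13, 0.04 and 0.17. The count was 8 to 12 when single libraries were left out.

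Of 14 genes of the NF-kB module, 7 rose (50%, against 9.49% of all genes tested) and 0 fell by edgeR. The median was 0.59, and 0 were lower at an unadjusted p under 0.05 and 0 with DESeq2. Relb, the subunit of the non-canonical pathway to which Ltbr, Cd40 and RANK signal, had 6.44 to 10.1 CPM in PBS and 32.4 to 44.2 CPM in LPS (2.12, adjusted p = 0.0004). Its partner Nfkb2 had 52.3 to 67.6 CPM in PBS and 105 to 135 CPM in LPS (1.10, adjusted p = 0.000864). Map3k14, the kinase NIK that starts that pathway, had a value of 0.11 (adjusted p = 0.543). Of 7 genes that shed or process the ligands and receptors, Adam17, the protease that releases TNF and both TNF receptors, rose from 64.6 to 84.5 CPM in PBS to 96.3 to 136 CPM in LPS (0.63, adjusted p = 0.0129). Timp3, an inhibitor of that protease, fell from 167 to 247 CPM in PBS to 105 to 129 CPM in LPS (adjusted p = 0.00553). Neither gene's groups overlapped. Rhbdf1 and Rhbdf2, which carry Adam17 to the surface, had values of 0.42 and 0.48 and adjusted p-values of 0.0768 and 0.0816.

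Of 26 genes that TNF is known to induce, 17 rose (65.4%, against 9.49% of all genes tested) and 0 fell by edgeR. The median was 2.34, and 0 were lower at an unadjusted p under 0.05 and 0 with DESeq2. With single libraries left out, 14 to 18 rose and 0 to 1 fell. Tnfaip6, Csf1 and Ier3 had fold changes below 0 (-0.45, -0.50 and -0.33) and were not called. Sod2, the mitochondrial superoxide dismutase, had 109 to 151 CPM in PBS and 976 to 2421 CPM in LPS (3.56, adjusted p = 0.000481). Mmp9, gelatinase B, had 0.0743 to 0.599 CPM in PBS and 21.8 to 60.5 CPM in LPS (7.06, adjusted p = 0.0004). LPS also induces these genes directly, and whether TNF took part was not tested. The lists were written with earlier results of these libraries known, and their counts are not independent evidence.

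**Figure D5:**
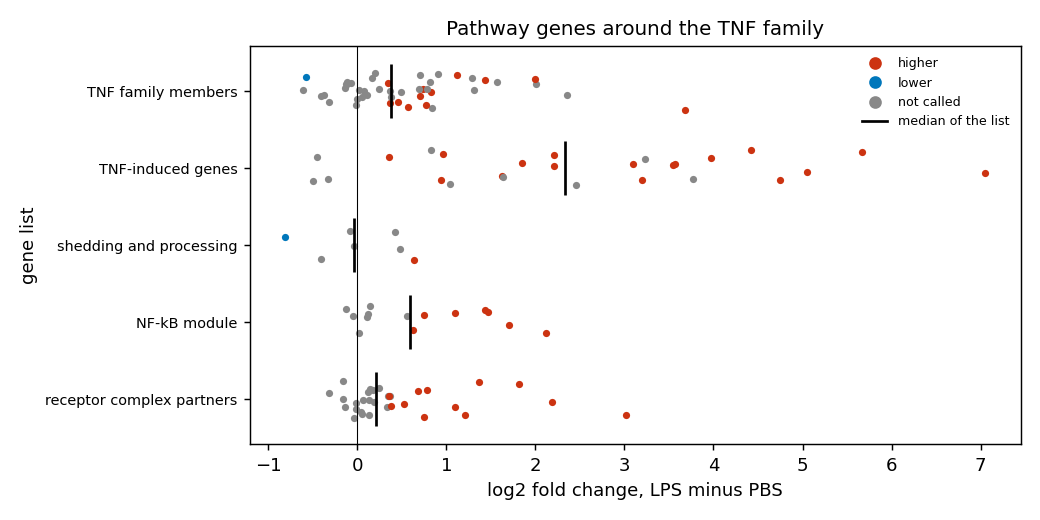
Log2 fold change (LPS minus PBS, horizontal axis) of each gene of the 4 pathway lists and of the 45 members, with red for higher, blue for lower, grey for not called and a black line at the median of each list. The medians are 0.21, 0.59, -0.04 and 2.34 for the receptor complex, NF-kB, shedding and TNF-induced lists and 0.38 for the members.

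Markers of several cell types moved with the groups, where 9.49% of all genes tested were higher and 7.45% lower. All 7 neutrophil markers tested rose, among them Mmp9, which the TNF-induced list also holds. The list's summed level was 34.1 to 57.7 CPM in PBS and 410 to 1690 CPM in LPS, highest in LPS replicate 4. That library also held the most Tnf, Ltb and Tnfrsf11a of its group. It was the highest LPS library for 9 of 45 members and the lowest for 12, among them Tnfrsf1a and Tnfsf10. Of 11 macrophage and monocyte markers tested, 9 rose and 0 fell, with sums of 665 to 906 CPM and 1490 to 2180 CPM. Of 10 dendritic cell markers, 4 rose, among them Ccr7 and Itgax, and Flt3 fell. Of 11 T cell markers tested, Cd8a and Cd8b rose, while the sums were 85.7 to 142 CPM in PBS and 85.3 to 138 CPM in LPS, most of it Cd4, which rat macrophages also carry. Of 6 B and plasma cell markers tested, Fcer2 rose (1.32 ± 0.522 to 13.9 ± 6.32 CPM; SD, n = 4 per group). The list's sums were 157 to 194 CPM in PBS and 182 to 249 CPM in LPS. Most of it was Xbp1, which was not called, with 152 to 182 CPM in PBS and 164 to 234 CPM in LPS. Ms4a1 and Pax5 were below the filter, with at most 7 and 8 counts in any library. Of 10 NK cell markers, Gzmb, Prf1 and Gzma rose, with sums of 18.2 to 35.7 CPM and 21.9 to 34.3 CPM. Most of that sum was Klrk1, which was not called, with 12.8 to 28.5 CPM in PBS and 13.7 to 18.5 CPM in LPS. Of 11 endothelial markers, 0 rose and 1 fell by edgeR (0 and 3 by unadjusted p), with sums of 564 to 1370 CPM and 599 to 850 CPM. Markers of other cell types changed too. Of 8 smooth muscle markers 6 fell, with sums of 4450 to 12400 CPM in PBS and 3690 to 5400 CPM in LPS. Of 8 fibroblast markers 4 rose, with sums of 12100 to 15300 CPM and 17100 to 26900 CPM. Of 6 red cell markers tested 4 fell, with sums of 547 to 1750 CPM and 94 to 516 CPM. Of 6 squamous epithelium markers tested Krt13 and Sprr1a fell, Krt13 with a log2 fold change of -4.53. Muc5ac of 9 glandular, Hdc of 7 mast cell and Pdpn of 6 lymphatic endothelial markers rose, and Lyve1 fell. The part of these cells in the changes of Tnfrsf1b, Tnfrsf14, Cd40, Fas and the other members was not tested.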

How the data were processed

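Total RNA of 8 cervix samples was sequenced, 4 per group. The deposited table holds the authors' raw counts, in whole numbers, by symbol and library. Per the submitters' processing notes, the tools were fastp, HISAT2, HTSeq and R (version 3.2.0), on build mRatBN7.2. The sources used here do not say which annotation or strand setting was used. The labels' library names tie each column to its sample, and the library of LPS replicate 4 carries the number 5.

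After filterByExpr by group, 16117 of 29884 symbols were kept. Counts were TMM-scaled and tested in edgeR 4.0.16 (R 4.3.3) by robust quasi-likelihood F tests without covariates. All 16117 p-values were adjusted together by the Benjamini-Hochberg method, and a call needs an adjusted p under 0.05. Log2 fold changes give LPS relative to PBS, and the SE is the absolute fold change over the square root of F. CPM uses the same scaling. Count ratios are given without a test, since the pairs were chosen after the members' values had been seen. Scripts were tested on simulated data.

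Values in every library, or their range, are given for called members with a mean of at least 1 CPM and a set list of members. Of each pathway list, the 2 called genes with the lowest adjusted p per direction are named. Other genes were named after their values were seen, and the interferon and gamma-activated motifs were also added then. Members and lists were chosen with earlier results of these data known.

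Alternatives were other scalings (RLE, upper quartile), no filter, at least 1 CPM in 4 libraries, DESeq2 1.42.0, limma 3.58.1 (voom, with and without quality weights), the replicate number as a block, and each library left out. PBS replicate 1 and LPS replicate 2 were also left out together, since earlier results showed them apart. The ratios without single libraries were added after seeing the data.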

Additional observations from a re-analysis of the deposited data

Results flagged for a closer look

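Among the 90 sets of 4 libraries (45 members tested in 2 groups), 8 had a library whose gap to the nearest other exceeded Dixon's 95% critical value, where chance alone gives about 5%. LPS replicate 3 was the highest of its group for Tnfrsf11b (213 CPM, next 28.3), Tnfsf18 (4.28 CPM, next 0.929), Tnfsf8 (1.19 CPM, next 0.461) and Ripk1 (70.8 CPM, next 60.5). Tnfrsf13b was at 1.07 CPM in PBS replicate 1, against 0.222 CPM in the next control. For Tnfrsf1a, PBS replicate 4 was lowest at 104 CPM against 119 CPM in the next. Tnfrsf21 in PBS replicate 3 (102 CPM, next 99.1) and Traf6 in LPS replicate 2 (26.7 CPM, next 29.1) differed from the rest of their group by small amounts. LPS replicate 3 was the highest LPS library for 17 of 45 members, LPS replicate 1 for 12, LPS replicate 4 for 9 and LPS replicate 2 for 7.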

How the results depend on the processing

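Scaling, filter and limma-voom without weights left the members at 12 higher and 1 lower. DESeq2 called 16 and 1, quality weights 14 and 1. With single libraries left out, 6 to 11 members were higher and 0 to 1 lower. Over all genes these ranges were 904 to 1385 higher and 563 to 1199 lower, with the fewest in both directions without PBS replicate 2, and DESeq2 called 2099 higher and 2089 lower. Pathway genes were 28 to 38 higher and 1 to 2 lower with a library left out, and 48 higher and 2 lower with DESeq2. Deviations of same-numbered libraries had r of -0.0989 to 0.242, against -0.235 to 0.175 for the other pairs. The highest was that of replicate 4, and the number of LPS replicate 4 differs from that of its library name. The replicate block left 9 members higher and 0 lower: Ltbr, Tnfrsf11a, Tnfsf13, Traf1 and Traf5 lost their call and Tnfsf10 gained one. The cause of these shifts was not tested.

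Of the 13 calls, 5 held in all 17 alternatives, 1 was lost in 1 and 7 were lost in 4 to 8. Among members that were not called, 5 passed in at least 1 alternative, and 9 with a fold change near 0 turned direction. Quality weights gave 0.23 for Tnfrsf13b and -0.00613 for Tnfrsf18. With libraries left out the log2 values spanned -0.30 to 0.68 for Cd27, -0.60 to 0.96 for Tnfrsf13b, -0.37 to 0.49 for Tnfrsf18, -0.30 to 0.25 for Tnfrsf26, -0.31 to 0.064 for Tnfrsf4, -0.069 to 0.21 for Tnfsf12, -0.029 to 0.17 for Traf4, -0.062 to 0.0299 for Traf6 and -0.047 to 0.024 for Traf7. Tnfrsf8 passed without PBS replicate 3 alone, which left few PBS counts. The 4 ratios kept their direction without any single library. This was fixed in advance, since no PBS library overlapped an LPS library in any of the 4. Scaling moved the median of all genes by at most 0.009. For the members with the fewest counts, depth limits what could be detected.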
